A study of Sus scrofa with 9 samples.

Results

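Iron handling and ferroptosis genes were followed in hearts of miniature pigs (Sus scrofa). The 10 genes were taken by symbol from a table of 30942 genes: TFRC, SLC11A2, SLC39A14, SLC40A1, FTH1, FTL, NCOA4, IREB2, ABCB8 and ACSL4. Each symbol matched 1 row, and all 10 passed the filter on low counts. The hearts came from wild-type (WT) pigs in 3 groups of 3 libraries: doxorubicin plus formononetin, doxorubicin, and vehicle. Doxorubicin is an anthracycline chemotherapy drug that poisons topoisomerase II, binds iron and is toxic to heart muscle, and formononetin is a plant isoflavone. All pigs carried the same WT genotype, and the 2 treated groups both received doxorubicin. The study's title concerns activation of the ERRα transcriptional pathway, mitochondrial metabolism and anthracycline cardiotoxicity. Dose, duration, the sampled part of the heart, age and sex were not given in the sources used here, and the labels do not say whether each library was made from its own animal. The p-values therefore cover the scatter among these libraries, which could be purely technical.

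Heart cells take up iron bound to transferrin through the transferrin receptor, and other divalent metal carriers add to that supply. Surplus iron is stored inside the ferritin shell, built of heavy and light chains, is released again when ferritin is carried to lysosomes (ferritinophagy), and leaves the cell through ferroportin. Iron regulatory proteins set the balance in most cells: when iron is scarce they bind iron-responsive elements, which stabilises the transferrin receptor message and blocks translation of ferritin. Ferroptosis is a form of cell death driven by iron-dependent oxidation of membrane phospholipids, and it has been studied in mouse models of doxorubicin cardiotoxicity.

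In the deposited coordinates, which match Sscrofa11.1, TFRC lies at chromosome 13, 133976765 to 133997554 (plus strand), SLC39A14 at chromosome 14, 6639485 to 6687929 (plus) and SLC40A1 at chromosome 15, 94140635 to 94161793 (minus). FTH1 lies at chromosome 2, 9535051 to 9537979 (plus), and FTL at chromosome 6, 54231121 to 54232756 (plus). NCOA4 lies at chromosome 14, 90505614 to 90531302 (minus), and IREB2 at chromosome 7, 47481539 to 47529199 (minus). ABCB8 lies at chromosome 18, 6178550 to 6197012 (minus), and ACSL4 at chromosome X, 89760863 to 89838103 (minus). SLC11A2 lies on an unplaced scaffold. Counts were per gene, so these values do not separate exons, introns or untranslated regions.

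Library totals lay between 16291952 and 17549359 counts. Replicate 2 of doxorubicin plus formononetin stood apart from the rest, with 14766 genes detected against 18107 to 19304 in the other 8. The biological coefficient of variation (spread between libraries beyond counting noise) was 31.5% with doxorubicin plus formononetin, 16.1% with doxorubicin and 13.1% with vehicle. The main fit used a spread per gene shared by all 3 groups, so this library also bears on doxorubicin against vehicle. Without it that comparison had 6657 of 15184 genes called (5 of the 10), against 4947 of 14846 (4 of the 10) with it. Calls of the 10 genes for doxorubicin plus formononetin against doxorubicin are also given without it. Other values include it unless stated. Heart muscle markers were abundant in every library, and their summed level was 72868 to 78140 TMM-scaled CPM (counts per 1000000 after trimmed-mean scaling of library sizes) with doxorubicin plus formononetin, 53738 to 62641 with doxorubicin and 81815 to 91858 with vehicle (11 of 12 listed genes matched). Of the 11 tested, 10 fell with doxorubicin, where 17% of all genes tested fell. Macrophage markers (16 genes) summed to 291 to 332 CPM with doxorubicin plus formononetin, 393 to 430.0 CPM in doxorubicin hearts and 203 to 353 CPM in vehicle hearts. Of 15 tested macrophage genes 6 rose with doxorubicin, where 16.3% of all genes rose, and none fell. At an unadjusted p under 0.05 the counts were 9 and 0, and the share of all genes at that threshold is not given here. They were 8 and 0 by DESeq2 and 8 and 0 by limma voom. Over all 14846 genes tested, 2718 rose by DESeq2 and 3600 by limma voom. Red cell markers were low, with 6 to 11 of the 12 matched genes at 0 counts in each library and a summed level of 9.65 to 41.6 CPM. Fewer cells of a type and less RNA per cell cannot be told apart in such bulk samples. Muscle and macrophage levels move with several results below, and their part in those results was not tested.

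**Figure D1:**
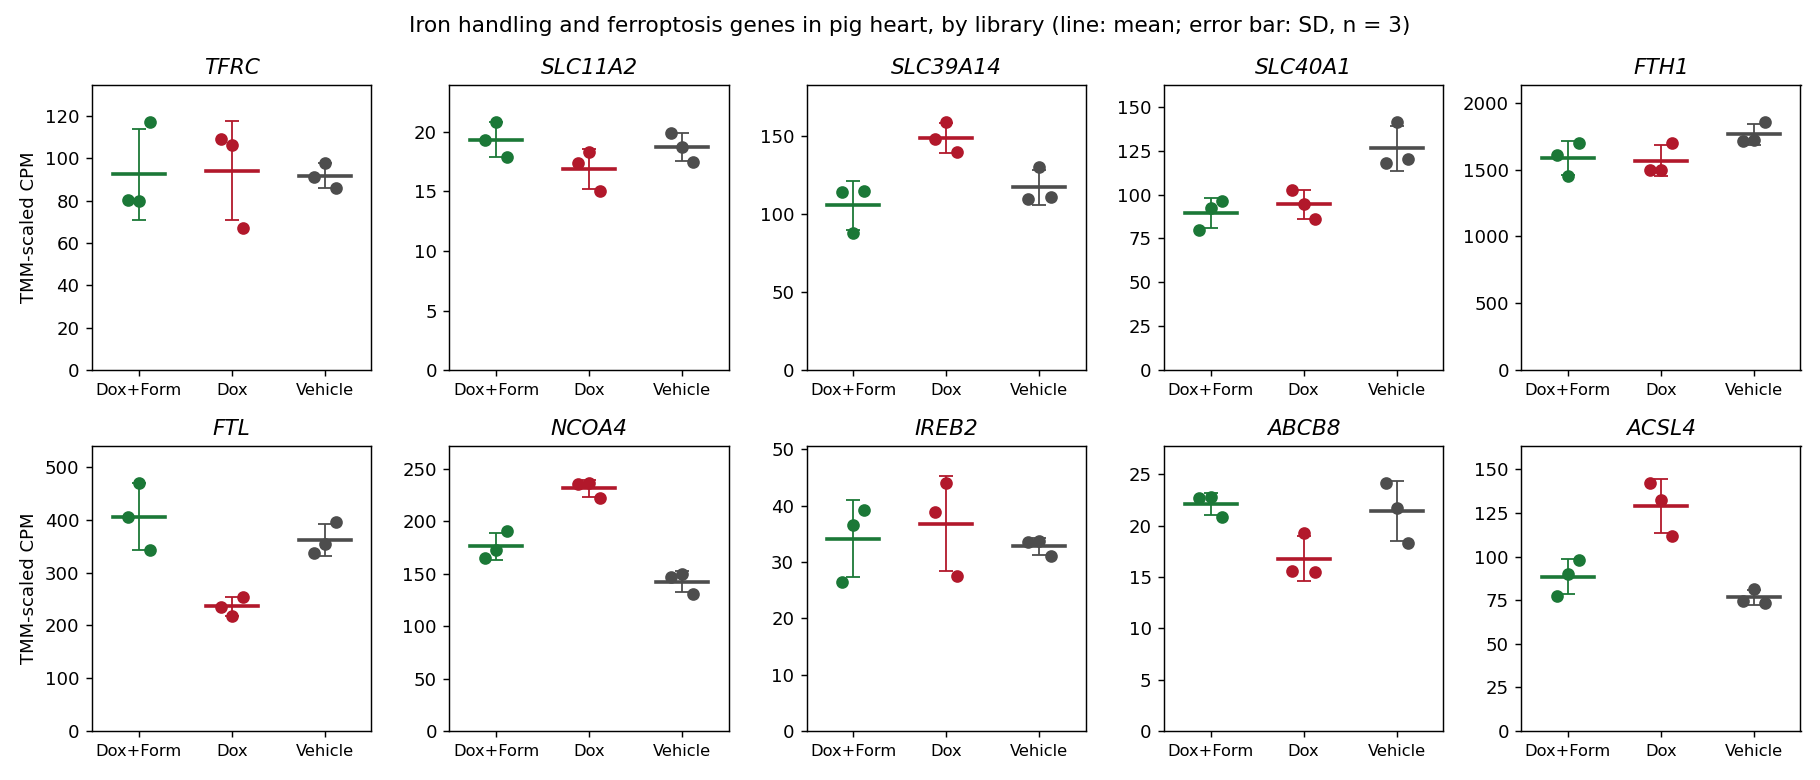
Expression of the 10 genes in TMM-scaled CPM (vertical axes from 0) in doxorubicin plus formononetin, doxorubicin and vehicle hearts. Points are libraries, lines are means and error bars are SD (n = 3); FTL is lower, and NCOA4, ACSL4 and SLC39A14 are higher, in all 3 doxorubicin libraries than in any other library.

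Doxorubicin hearts held more NCOA4 and ACSL4 message and less FTL and SLC40A1 message than vehicle hearts. NCOA4, the receptor that carries ferritin to lysosomes, was 1.63-fold higher. ACSL4, which activates polyunsaturated fatty acids for the membrane phospholipids oxidised in ferroptosis, was 1.68-fold higher. FTL, the ferritin light chain, was at 0.652 times and SLC40A1 (ferroportin, the iron exporter) at 0.747 times the vehicle level. With formononetin added, FTL was higher and NCOA4, ACSL4 and SLC39A14 were lower than with doxorubicin alone, while SLC40A1 stayed below vehicle in all 3 libraries without passing the test against vehicle.

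By the edgeR quasi-likelihood test, 4 of the 10 genes were called for doxorubicin against vehicle at an adjusted p under 0.05 (Benjamini-Hochberg over all 14846 genes tested), where 33.3% of all genes tested were called. NCOA4 and ACSL4 rose (16.3% of all genes rose) and FTL and SLC40A1 fell (17% of all genes fell). For doxorubicin plus formononetin against doxorubicin, 4 of 10 were called, FTL upward and SLC39A14, NCOA4 and ACSL4 downward, where 28.1% of all genes were called, 14.7% upward and 13.5% downward. For doxorubicin plus formononetin against vehicle, 0 of 10 were called, where 1.76% of all genes were called, 0.956% upward and 0.808% downward. At an unadjusted p under 0.05 (share of all genes not given here) that last comparison had 2 of 10, SLC40A1 and NCOA4. DESeq2 called the same 2 (748 of all 14846 genes), and limma voom SLC40A1 alone (1378 of all genes). The first 2 comparisons share the doxorubicin libraries, so their values for a gene are not independent of each other. The median log2 fold change of the 10 genes was -0.05 for doxorubicin against vehicle, against -0.0019 over all genes tested, and -0.05 for doxorubicin plus formononetin against doxorubicin, against -0.01 over all genes tested. The share called among these genes lay near the share among all genes tested.

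**Figure D2:**
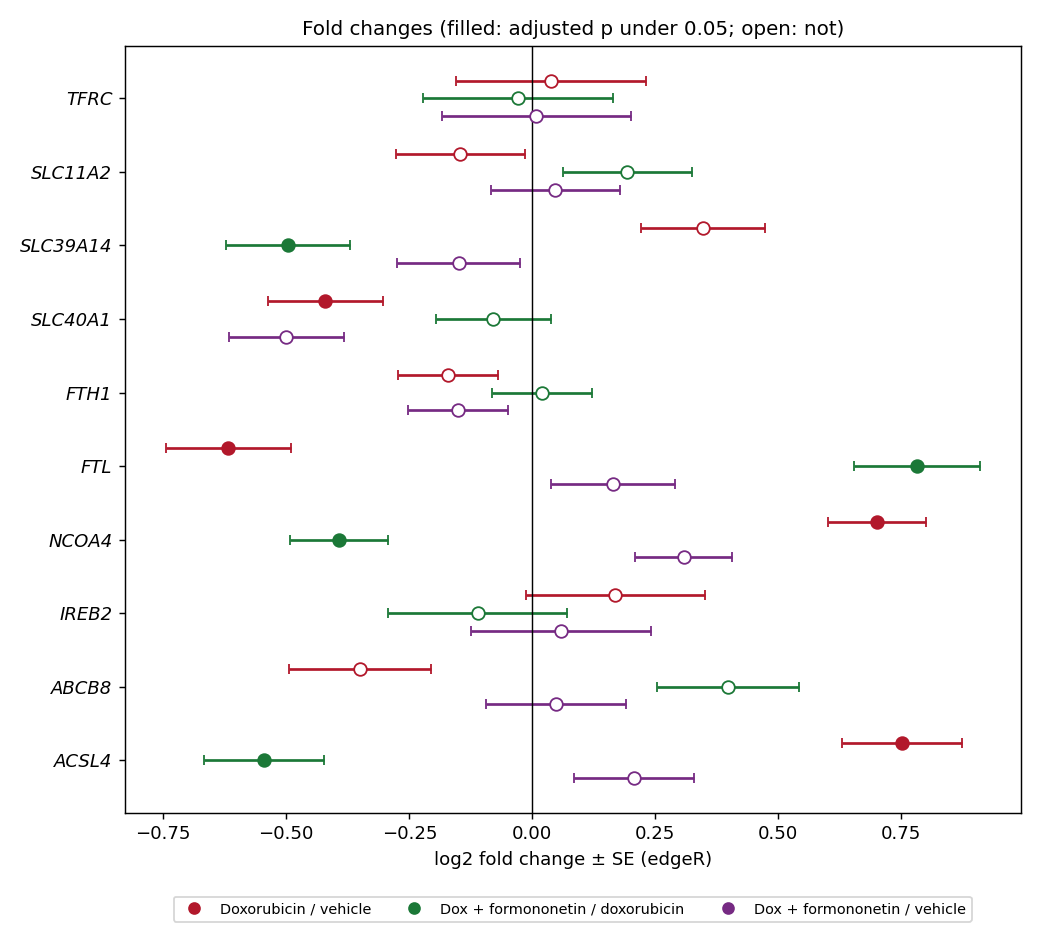
Log2 fold changes (horizontal axis) of the 10 genes with SE from edgeR in the 3 comparisons. Filled points passed an adjusted p of 0.05; FTL, NCOA4 and ACSL4 are filled on opposite sides of 0 in the 2 comparisons that share the doxorubicin libraries.

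TFRC encodes the transferrin receptor, the main route of iron uptake. It had 80.3, 79.6 and 117 CPM in doxorubicin plus formononetin libraries, 109, 106 and 67.2 CPM in doxorubicin libraries and 91.2, 97.8 and 86.1 CPM in vehicle libraries. The 3 groups overlapped, and the spread among doxorubicin libraries (94.1 ± 23.4 CPM, SD, n = 3) was wider than among vehicle libraries (91.7 ± 5.86 CPM). The log2 fold change for doxorubicin against vehicle was 0.04, with a 95% interval from -0.38 to 0.46 (adjusted p = 0.901). That for doxorubicin plus formononetin against doxorubicin was -0.03 (-0.45 to 0.39, adjusted p = 0.926).

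SLC11A2, the divalent metal transporter DMT1 that moves iron out of endosomes, was the lowest of the 10 per length. Its values were 19.3, 20.8 and 17.9 CPM in doxorubicin plus formononetin hearts, 17.4, 18.3 and 15.1 CPM in doxorubicin hearts and 19.9, 18.7 and 17.5 CPM in vehicle hearts, and the groups overlapped. The log2 fold change was -0.15 ± 0.13 SE for doxorubicin against vehicle and 0.19 ± 0.13 for doxorubicin plus formononetin against doxorubicin (adjusted p = 0.424 and 0.295).

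SLC39A14 (ZIP14), a zinc transporter that also imports iron not bound to transferrin, had 114, 87.8 and 115 CPM in doxorubicin plus formononetin hearts, 149, 159 and 139.7 CPM in doxorubicin hearts and 109.9, 130.4 and 111 CPM in vehicle hearts. All 3 doxorubicin libraries exceeded all 6 others. Against vehicle the log2 fold change with doxorubicin was 0.35 ± 0.13 SE and just missed the threshold (adjusted p = 0.053), but it passed in 6 of 15 alternatives. Among these, adjusted p was 0.0481 with DESeq2-style size factors, 0.0238 by DESeq2, 0.00273 by limma voom and 0.019 with only the 2 groups in the fit. Leaving out doxorubicin plus formononetin replicate 2 gave 0.0167, and leaving out its replicate 3 gave 0.048. SLC39A14 fell with doxorubicin plus formononetin relative to doxorubicin by 0.50 ± 0.13 on the log2 scale (adjusted p = 0.0139). Without the second doxorubicin plus formononetin library that value was -0.38 ± 0.11 (adjusted p = 0.0306), and without the second doxorubicin library the call was lost (adjusted p = 0.055).

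Iron export was represented by SLC40A1, the only known cellular iron exporter of mammals. It had 79.9, 92.1 and 96.2 CPM in doxorubicin plus formononetin libraries, 103, 94.9 and 85.8 CPM in doxorubicin libraries and 118, 141 and 120.3 CPM in vehicle libraries. Both treated groups lay wholly below vehicle and overlapped with each other. SLC40A1 fell with doxorubicin by 0.42 ± 0.12 SE on the log2 scale (adjusted p = 0.0174), a call lost without vehicle replicate 2 (adjusted p = 0.0837), doxorubicin replicate 2 (0.0508) or doxorubicin replicate 3 (0.0614). For doxorubicin plus formononetin against vehicle its log2 fold change was -0.50 ± 0.12, the largest of the 10 in that comparison, with an adjusted p of 0.0584, while DESeq2 gave 0.00364 and limma voom 0.00424. Between doxorubicin plus formononetin and doxorubicin the log2 fold change was -0.08, with a 95% interval from -0.34 to 0.18. SLC40A1 is also known as a macrophage gene. The summed macrophage markers were 393 to 430.0 CPM in doxorubicin hearts and 203 to 353 CPM in vehicle hearts, and their part in this result was not tested.

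The ferritin chains store iron as a mineral core, the heavy chain FTH1 oxidising incoming iron and the light chain FTL helping the core to form. FTL had 404, 469.7 and 343 CPM in doxorubicin plus formononetin hearts, 235, 218 and 254 CPM in doxorubicin hearts and 337, 354 and 395 CPM in vehicle hearts. No doxorubicin library reached any library of the other groups, and doxorubicin plus formononetin overlapped with vehicle. FTL fell with doxorubicin by 0.62 ± 0.13 SE on the log2 scale (adjusted p = 0.00377) and was 1.72-fold higher with doxorubicin plus formononetin than with doxorubicin (log2 0.78 ± 0.13, adjusted p = 0.00151). Without the second doxorubicin plus formononetin library, the highest of the 9, the second value was 0.67 ± 0.12 (adjusted p = 0.00284), and both FTL calls passed under each of the 15 alternatives.

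FTH1, in contrast, stayed within a narrow range. Its values were 1609, 1451 and 1702 CPM with doxorubicin plus formononetin, 1498, 1499.55 and 1701 CPM with doxorubicin and 1716, 1719 and 1854 CPM with vehicle. Both treated groups lay just below vehicle, without overlap. The log2 fold change was -0.17 ± 0.10 for doxorubicin against vehicle (95% interval -0.39 to 0.05, adjusted p = 0.222) and 0.02 ± 0.10 for doxorubicin plus formononetin against doxorubicin (-0.20 to 0.24, adjusted p = 0.906). By limma voom with sample weights the first of these passed, at -0.22 (adjusted p = 0.0274).

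The make-up of ferritin message therefore differed between groups more than its sum. FTL took 20.1%, 24.5% and 16.8% of FTH1 plus FTL counts in doxorubicin plus formononetin libraries, 13.6%, 12.7% and 13.0% in doxorubicin libraries and 16.4%, 17.1% and 17.6% in vehicle libraries. The doxorubicin libraries were the lowest 3 of the 9, and doxorubicin plus formononetin libraries spread on both sides of the vehicle median. There were 4.01 ± 0.94, 6.64 ± 0.26 and 4.88 ± 0.21 FTH1 counts for each FTL count with doxorubicin plus formononetin, doxorubicin and vehicle (SD, n = 3 each). This within-library ratio does not depend on how library sizes are scaled. Summed ferritin message was 1993 ± 64.4 CPM with doxorubicin plus formononetin, 1802 ± 133 CPM with doxorubicin and 2125 ± 108 CPM with vehicle. How the authors' counting treated reads shared between ferritin copies is not given in the sources used here, so both levels are uncertain to that extent. The other ferritin entries of the table held 9 counts in all, from a light chain-like locus, and the mitochondrial ferritin FTMT had 0 of 151615807 counts, which allows up to 3 counts or 1.98e-06% of the total (counting error only).

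**Figure D3:**
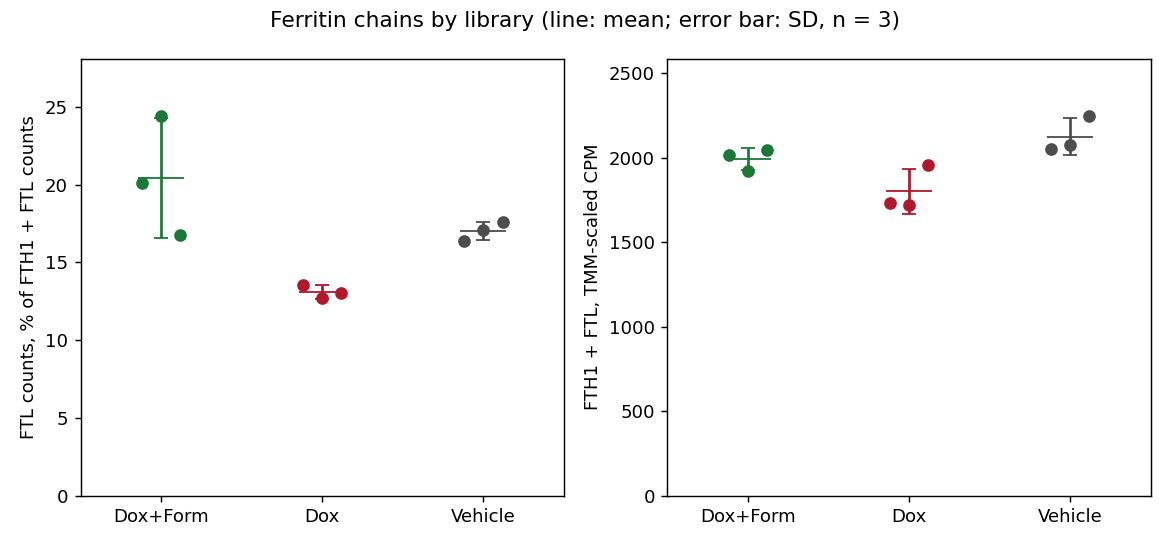
Share of FTL in ferritin counts (left, percent) and summed FTH1 and FTL level (right, TMM-scaled CPM) by library, with mean and SD (n = 3). The 3 doxorubicin libraries lie at 12.7% to 13.6%, below the doxorubicin plus formononetin and vehicle libraries, which start at 16.4%.

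Release of stored iron depends on NCOA4. Its values were 165, 172 and 190.4 CPM in doxorubicin plus formononetin hearts, 235, 236 and 222 CPM in doxorubicin hearts and 147, 149 and 131 CPM in vehicle hearts. The 3 groups did not overlap, and doxorubicin plus formononetin lay between the other two. NCOA4 rose with doxorubicin by 0.70 ± 0.10 SE on the log2 scale (adjusted p = 4.83e-04) and fell with doxorubicin plus formononetin relative to doxorubicin by 0.39 ± 0.10 (adjusted p = 0.0136). The second call was lost without doxorubicin plus formononetin replicate 1 (adjusted p = 0.0579) and kept without its replicate 2 (-0.38 ± 0.11, adjusted p = 0.0281). Against vehicle, doxorubicin plus formononetin gave a log2 fold change of 0.31 ± 0.10 that did not pass (adjusted p = 0.152), although DESeq2 called it (0.0413).

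IREB2 encodes iron regulatory protein 2, which binds iron-responsive elements when iron is scarce. It had 26.4, 36.6 and 39.3 CPM in doxorubicin plus formononetin libraries, 38.9, 44.1 and 27.5 CPM in doxorubicin libraries and 33.5, 33.8 and 31.1 CPM in vehicle libraries, with all groups overlapping. The log2 fold change was 0.17 for doxorubicin against vehicle (95% interval -0.23 to 0.57, adjusted p = 0.514) and -0.11 for doxorubicin plus formononetin against doxorubicin (-0.51 to 0.29, adjusted p = 0.68). Limma voom gave -0.47 for the second and called it (adjusted p = 0.0287). Doxorubicin plus formononetin replicate 3 was the highest of its group for both IREB2 and TFRC, and doxorubicin replicate 3 the lowest of its group for both. The same held in both libraries for SLC40A1, SLC39A14, NCOA4 and ACSL4, so this was not particular to IREB2 and TFRC.

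ABCB8 encodes an ATP-binding cassette protein of the inner mitochondrial membrane, which in mouse heart has been linked to mitochondrial iron export. Its values were 22.7, 22.8 and 20.8 CPM in doxorubicin plus formononetin hearts, 15.5, 19.3 and 15.5 CPM in doxorubicin hearts and 24.2, 21.7 and 18.3 CPM in vehicle hearts. All doxorubicin plus formononetin libraries exceeded all doxorubicin libraries, whereas doxorubicin and vehicle overlapped. The log2 fold changes were -0.35 ± 0.14 SE for doxorubicin against vehicle (adjusted p = 0.0828) and 0.40 ± 0.14 for doxorubicin plus formononetin against doxorubicin (0.0597), and neither passed. Without doxorubicin replicate 2 the second was 0.51 and passed (adjusted p = 0.0459).

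ACSL4 had 77.7, 89.7 and 97.8 CPM in doxorubicin plus formononetin hearts, 142, 133 and 112 CPM in doxorubicin hearts and 74.8, 81.5 and 73.5 CPM in vehicle hearts. The doxorubicin libraries were the highest 3 of the 9, and the other groups overlapped. ACSL4 rose with doxorubicin by 0.75 ± 0.12 SE on the log2 scale (adjusted p = 0.001), the largest change of the 10 in that comparison, and fell with doxorubicin plus formononetin relative to doxorubicin by 0.55 ± 0.12 (adjusted p = 0.00735). Both calls passed under each of the 15 alternatives. Without the second doxorubicin plus formononetin library the second value was -0.55 ± 0.14 (adjusted p = 0.0134). For doxorubicin plus formononetin against vehicle the log2 fold change was 0.21, with a 95% interval from -0.06 to 0.47 (adjusted p = 0.419).

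Groups did not overlap for 6 of the 10 genes in doxorubicin against vehicle, where 55.3% of all genes tested did not. In doxorubicin plus formononetin against doxorubicin 5 of 10 did not overlap (42.2% of all genes), and in doxorubicin plus formononetin against vehicle 3 of 10 did not (23.6% of all genes), namely FTH1, SLC40A1 and NCOA4.

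Per kilobase of the deposited gene length, ferritin dominated. FTH1 stood at 1588 ± 127 CPM per kilobase with doxorubicin plus formononetin, 1567 ± 117 with doxorubicin and 1763 ± 79.1 with vehicle (SD, n = 3 each), and FTL at 434 ± 67.9, 253 ± 19.5 and 388 ± 32.3 in the same groups. TFRC followed them in each group, at 38.7 ± 8.96, 39.5 ± 9.81 and 38.5 ± 2.46 CPM per kilobase. In doxorubicin hearts NCOA4 came next at 38.4 ± 1.36, above SLC40A1 at 27.0 ± 2.39, and its libraries overlapped with those of TFRC. In vehicle hearts SLC40A1 came next at 36.1 ± 3.67, overlapping with TFRC, and then NCOA4 at 23.6 ± 1.69, without overlap between SLC40A1 and NCOA4. ACSL4 and SLC39A14 overlapped in both treated groups (15.2 ± 1.74 and 14.9 ± 2.18 with doxorubicin plus formononetin, 22.2 ± 2.66 and 21.1 ± 1.38 with doxorubicin), whereas in vehicle hearts ACSL4 lay below SLC39A14 (13.2 ± 0.74 and 16.6 ± 1.61). IREB2, ABCB8 and SLC11A2 took the lowest 3 ranks in each group, in that order, without overlap between neighbours.

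**Figure D4:**
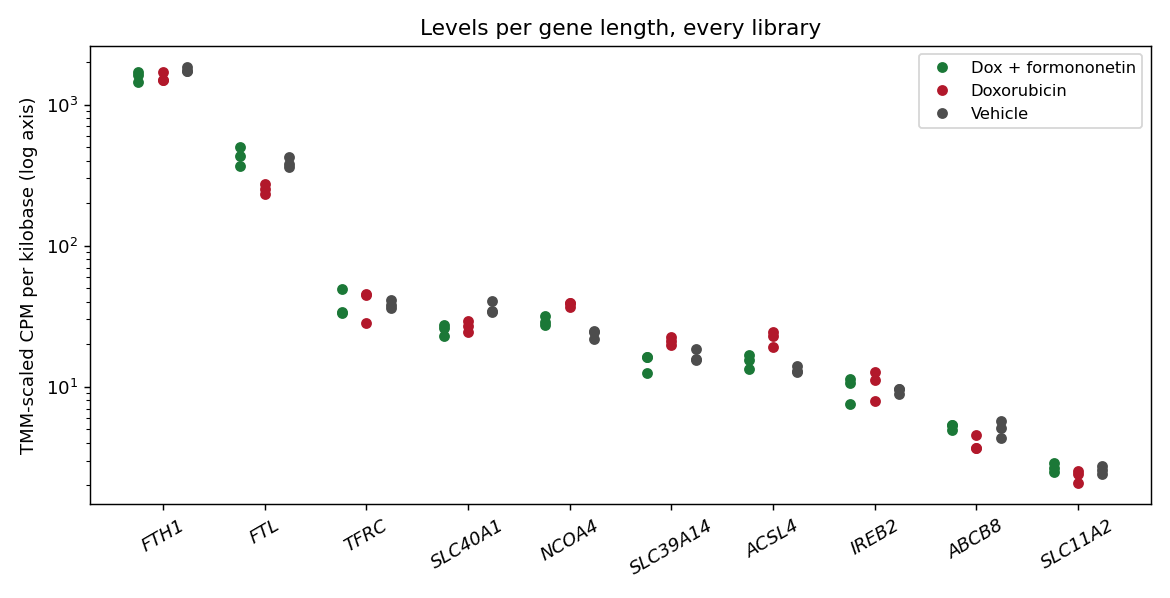
Level per kilobase of gene length (logarithmic axis, TMM-scaled CPM per kilobase) of each gene in each library, with genes ordered by their vehicle mean. FTH1 lies highest and SLC11A2 lowest in all groups, and NCOA4 reaches the level of TFRC with doxorubicin.

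Some of the 10 genes varied alike over the 9 libraries. As the root mean square difference of log2 CPM centred on each gene's mean, NCOA4 and ACSL4 were closest to each other (0.10, against an own spread of 0.30 and 0.34), as were TFRC and IREB2 (0.15, against 0.24 and 0.23). ABCB8 and SLC11A2 were also nearest to each other (0.13, against 0.22 and 0.13). That difference was no less than the own spread of SLC11A2, which varied less than ABCB8. This measure alone does not settle how far the pair varied together. The nearest of the 10 lay at 0.19 from FTH1, 0.22 from SLC40A1, 0.23 from SLC39A14 and 0.27 from FTL. The own spreads of these genes were 0.11, 0.25, 0.25 and 0.36. How many of all genes lie as close to each of the 10 was not counted. Among all 8668 other genes with a mean of at least 10 CPM, those closest to TFRC were PARP4 (0.09), PHC3 (0.09) and LAMP2 (0.10). The 3 closest to FTH1, whose own spread was 0.11, were KARS (0.05), C14H22orf39 (0.05) and DYRK1B (0.06). These are descriptions over 9 libraries that share the 3 group means.

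The wider iron uptake, export and heme transport list (25 of 34 matched genes tested) went both ways with doxorubicin, with 4 up and 5 down (36% called, near the 33.3% of all genes tested) and a median log2 fold change of -0.18. Falls were seen in SCARA5, known in mouse as a ferritin receptor (-4.16 ± 0.69 SE), SLC48A1, which moves heme out of lysosomes (-0.92 ± 0.14), STEAP4, a metalloreductase (-1.69 ± 0.35), and LRP1, a receptor for heme bound to hemopexin among many ligands (-0.72 ± 0.18). SCARA5 had 698, 856 and 408 counts in doxorubicin plus formononetin libraries, 111, 7 and 7 counts in doxorubicin libraries and 418, 973 and 804 counts in vehicle libraries, and its log2 fold change was -6.64 without doxorubicin replicate 1. Rises were seen in CP, ceruloplasmin, a copper enzyme that oxidises exported iron (3.96 ± 0.81), and STEAP2, a metalloreductase (1.68 ± 0.49). CP was a low gene, with 7, 0 and 3 counts in doxorubicin plus formononetin libraries, 134, 55 and 51 counts in doxorubicin libraries and 2, 3 and 10 counts in vehicle libraries. STEAP2 was low too, with 199 counts summed over doxorubicin libraries and 62 over vehicle libraries, and STEAP4 had 102 and 327. The remaining calls were HP and BMP6 upward and LCN2 downward, named after their values were seen and not followed through the alternatives. The call of LRP1 was lost without vehicle replicate 2 (adjusted p = 0.0505). That of STEAP2 was lost without vehicle replicate 1 or 2 or doxorubicin replicate 2 (log2 1.06 and adjusted p = 0.15 in the last case). Without vehicle replicate 1 the list had 5 calls (3666 of all 15281 genes), and without vehicle replicate 2 it had 5 (3316 of 15198). Limma voom called 14 of the list, and 7200 of all 14846 genes. With doxorubicin plus formononetin against doxorubicin, 8 of 25 rose and 3 fell (44% called, where 28.1% of all genes were), with SCARA5 at 4.05 ± 0.69 (6.52 without doxorubicin replicate 1), SLC48A1 at 0.93 ± 0.14 and CP at -4.44 ± 0.85. HP and CD163, a macrophage receptor for haptoglobin-bound hemoglobin that is also in the macrophage list, were the other two that fell, also named after their values were seen. The total called in that comparison was 7 without vehicle replicate 3 (3461 of all 15220 genes) and 6 without doxorubicin replicate 1 (2801 of 15195). It was 5 without doxorubicin replicate 2 (2910 of 15223) and 6 without doxorubicin plus formononetin replicate 1 (3203 of 15255). Without doxorubicin plus formononetin replicate 2, 5 rose and 3 fell, where 4078 of 15184 genes were called. Limma voom called 17 of the list, and 5924 of 14846 genes. Transferrin itself (2 rows), TFR2, hepcidin (HAMP) and FTMT were too low to be tested.

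Genes of iron sensing, ferritinophagy and iron chaperoning changed in 15 of 24 cases with doxorubicin, 7 up and 8 down (62.5% called, where 33.3% of all genes tested were), with a median log2 fold change of 0.14. TAX1BP1, an autophagy receptor that acts with NCOA4 on ferritin, rose by 0.77 ± 0.11 SE (adjusted p = 4.95e-04), and it had 223, 184 and 244 CPM in doxorubicin plus formononetin libraries, 290.3, 293 and 289 CPM in doxorubicin libraries and 172, 164 and 174 CPM in vehicle libraries. HIF1A, an alpha subunit of the hypoxia-inducible factors, rose by 0.72 ± 0.11, and ATG5, of autophagosome formation, by 0.69 ± 0.14. EPAS1, another alpha subunit, and ARNT, the partner of both, fell (-0.52 ± 0.13 and -0.37 ± 0.13) and were named after their values were seen. NUPR1, a stress-induced transcription regulator, fell by 2.97 ± 0.47 on the log2 scale, WIPI2, of autophagosome formation, by 0.55 ± 0.11, and CISD3, an iron-sulfur protein of mitochondria, by 0.50 ± 0.10. NUPR1 was a low gene, with 53 counts summed over the doxorubicin libraries and 422 over the vehicle libraries. Autophagy genes of the list thus went in both directions. ACO1, which encodes iron regulatory protein 1, stood at 72.8 ± 18.4 CPM with doxorubicin plus formononetin, 93.4 ± 9.70 CPM with doxorubicin alone and 78.5 ± 4.95 CPM in vehicle hearts, and FBXL5, the iron-sensing ubiquitin ligase subunit for IREB2, at 62.6 ± 6.76, 66.5 ± 0.74 and 54.9 ± 3.35 CPM. Neither passed for doxorubicin against vehicle (adjusted p = 0.257 and 0.0627), although DESeq2, limma voom and 3 other alternatives called FBXL5. Without vehicle replicate 1 the list had 9 calls for doxorubicin against vehicle, where 3666 of all 15281 genes were called. With doxorubicin plus formononetin against doxorubicin 7 of 24 rose and 6 fell (54.2% called, where 28.1% of all genes were), with NUPR1 (2.87 ± 0.47), ATG9A, a lipid scramblase of autophagosomes (0.71 ± 0.12), and PCBP4, of the poly(C)-binding protein family (0.61 ± 0.10).

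Mitochondrial iron, iron-sulfur cluster and heme genes had 4 rises and 8 falls among 43 tested with doxorubicin (27.9%, below the 33.3% of all genes). Their median log2 fold change was -0.05. In doxorubicin plus formononetin against doxorubicin 9 were called (20.9%, where 28.1% of all genes were). Limma voom called 17 there, and 5924 of all 14846 genes. Without doxorubicin plus formononetin replicate 2, 9 rose and 3 fell, where 4078 of all 15184 genes were called. With doxorubicin against vehicle HMOX2, the constitutive heme oxygenase, fell by 0.63 ± 0.11 SE and SLC25A37 (mitoferrin 1, an iron importer of mitochondria) by 0.63 ± 0.12. MMS19, which delivers iron-sulfur clusters to nuclear and cytosolic enzymes, fell by 0.55 ± 0.10, and NUBP2, a scaffold of cytosolic cluster assembly, by 1.34 ± 0.27. NUBP2 was low, with 166 counts summed over doxorubicin libraries and 417 over vehicle libraries. CIAPIN1, an electron carrier of the same assembly, rose by 0.84 ± 0.15 and the biliverdin reductase BLVRA by 0.91 ± 0.21. ABCB6 and NFU1 completed the rises and were named after their values were seen. For doxorubicin against vehicle the list had 21 calls by limma voom, which called 7200 of all 14846 genes. It had 19 with only the 2 groups in the fit (6601 of all 14471 genes). Without doxorubicin plus formononetin replicate 2 it also had 19 (6657 of 15184). HMOX1, the inducible heme oxygenase, stood at 5.80 ± 0.86 CPM with doxorubicin plus formononetin, 8.35 ± 1.76 CPM with doxorubicin alone and 6.49 ± 0.44 CPM in vehicle hearts, and did not pass for doxorubicin against vehicle (adjusted p = 0.214). With doxorubicin plus formononetin against doxorubicin 6 of 43 rose and 3 fell (CIAPIN1, ABCB6 and BLVRA). ALAS1, the first enzyme of heme synthesis, rose by 0.64 ± 0.11, UROS, a later one, by 0.62 ± 0.11 and HMOX2 by 0.61 ± 0.11. SLC25A37 remained low with formononetin: it had 18.5, 17.8 and 18.7 CPM in doxorubicin plus formononetin libraries, 18.3, 18.8 and 16.2 CPM in doxorubicin libraries and 25.1, 29.3 and 28.2 CPM in vehicle libraries. It was the 1 gene of this list called for doxorubicin plus formononetin against vehicle (-0.59 ± 0.12, adjusted p = 0.033), a call lost in 8 of 15 alternatives (highest adjusted p = 0.166).

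Ferroptosis genes other than ACSL4 had 14 rises and 5 falls among 49 tested with doxorubicin, where 16.3% of all genes rose and 17% fell. In both directions together 38.8% were called, near the 33.3% of all genes tested, and the median log2 fold change was 0.12. Both subunits of glutamate-cysteine ligase, which makes the precursor of glutathione, rose, GCLM by 1.48 ± 0.15 SE (adjusted p = 9.02e-05) and GCLC by 0.81 ± 0.15. NOX4, an oxidase that makes hydrogen peroxide, rose by 1.22 ± 0.16, and SAT1, of polyamine breakdown, by 0.70 ± 0.13. FADS2, a desaturase of polyunsaturated fatty acid synthesis, fell by 1.12 ± 0.16 on the log2 scale, and ACSL1, the main long-chain acyl-CoA synthetase of heart, by 0.59 ± 0.12, opposite to ACSL4. GSS, ALOX15 and KEAP1 also fell and were named after their values were seen. GPX4, the peroxidase that reduces phospholipid hydroperoxides, stood at 164 ± 25.7 CPM with doxorubicin plus formononetin, 138 ± 19.6 CPM with doxorubicin alone and 163 ± 5.19 CPM in vehicle hearts, and SLC7A11, the cystine importer, at 9.39 ± 1.50, 12.1 ± 1.21 and 9.70 ± 2.79 CPM. Neither passed for doxorubicin against vehicle (adjusted p = 0.195 and 0.296), although limma voom called GPX4 (0.0101). Without vehicle replicate 2 the list had 10 calls for doxorubicin against vehicle, where 3316 of all 15198 genes were called. With doxorubicin plus formononetin against doxorubicin 4 of 49 rose and 10 fell, where 14.7% of all genes rose and 13.5% fell. In both directions together 28.6% were called, near the 28.1% of all genes. FADS2 was at 1.37 ± 0.16, GCLM at -1.01 ± 0.15 and NOX4 at -0.91 ± 0.15. Besides FADS2, ACSL1 (0.66 ± 0.12), AIFM2 and MAP1LC3A made up the rises, the last 2 named after their values were seen. That total of 14 was 22 by limma voom, which called 5924 of all 14846 genes. It was 9 without doxorubicin replicate 1 (2801 of 15195 genes) and without doxorubicin plus formononetin replicate 1 (3203 of 15255). It was also 9 with only the 2 groups in the fit (2856 of 14379). Without doxorubicin plus formononetin replicate 2, 4 rose and 8 fell, where 4078 of 15184 genes were called.

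**Figure D5:**
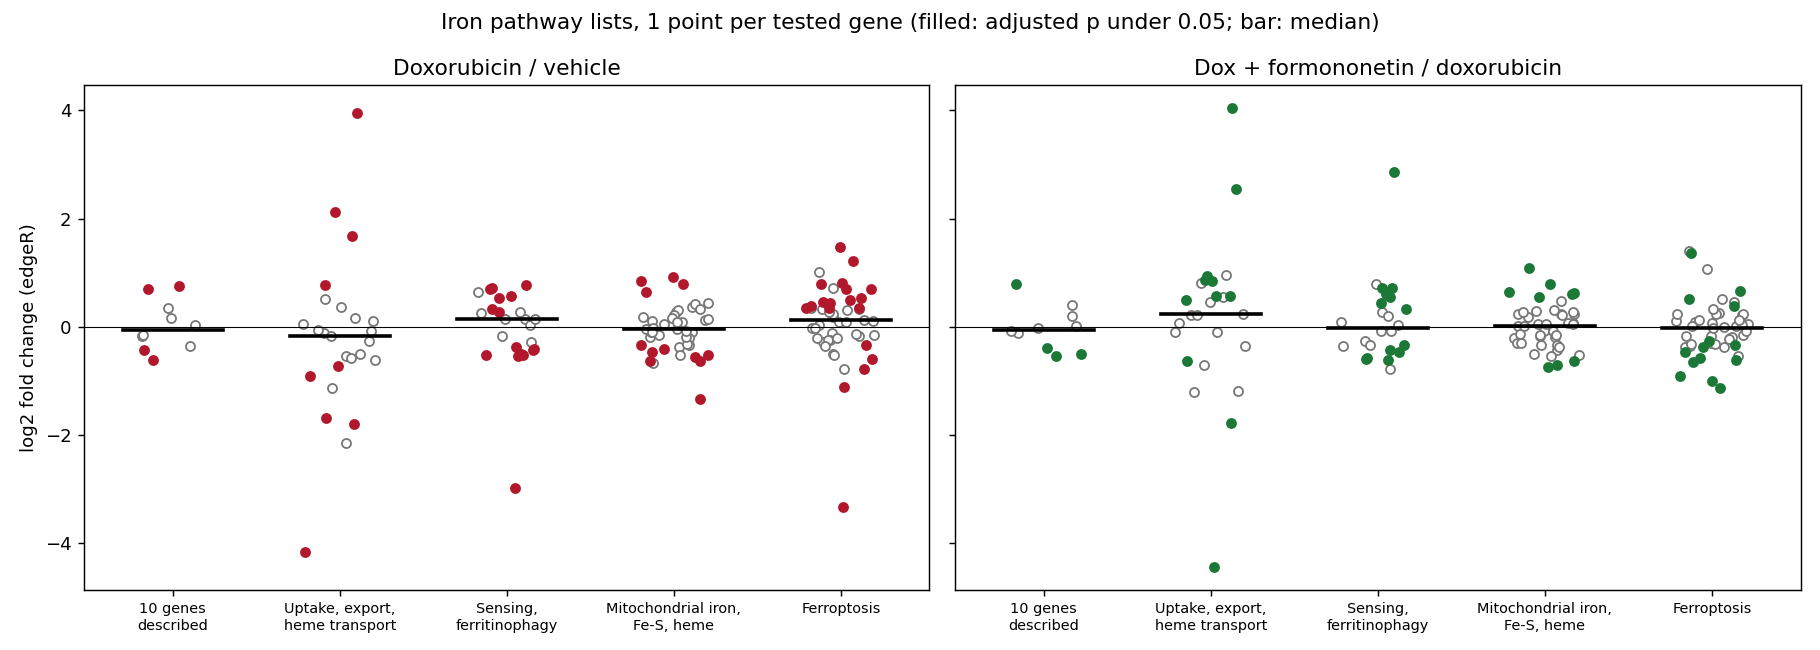
Log2 fold changes (vertical axis) of tested genes in the 10-gene set and 4 iron pathway lists for doxorubicin against vehicle (left) and doxorubicin plus formononetin against doxorubicin (right). Filled points passed an adjusted p of 0.05 and bars are medians, which lie between -0.18 and 0.24.

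For doxorubicin plus formononetin against vehicle, these lists held 1 rise and 1 fall by edgeR, where 1.76% of all genes tested were called. The rise was POR, a flavoprotein that feeds electrons to lipid peroxidation among other reactions, at 0.93 ± 0.18 (adjusted p = 0.0302), named after its values were seen. POR was also called upward for doxorubicin alone against vehicle (0.69 ± 0.18, adjusted p = 0.0139). It stood at 79.2 ± 6.63 CPM with doxorubicin plus formononetin, 67.0 ± 15.6 CPM with doxorubicin and 41.5 ± 8.53 CPM with vehicle. No gene of its list was called with the replicate block, without vehicle replicate 2 or 3, without doxorubicin replicate 2 or without doxorubicin plus formononetin replicate 1 or 2. Without doxorubicin plus formononetin replicate 3, 4 of that list were called, and 465 of all 15287 genes. The fall was SLC25A37. Of the uptake and of the sensing genes 0 were called. At an unadjusted p under 0.05 there were 3 up and 1 down among uptake genes and 1 up and 1 down among sensing genes, DESeq2 called 2 and 1 of them, and limma voom 4 and 1. The mitochondrial list had 1 up and 5 down at an unadjusted p under 0.05, 0 up and 1 down by DESeq2, and 2 up and 2 down by limma voom. The ferroptosis list had 8 up and 6 down at an unadjusted p under 0.05, 3 up and 1 down by DESeq2, and 5 up and 3 down by limma voom. Over all 14846 genes tested, DESeq2 called 398 up and 350 down, and limma voom 708 up and 670 down. The share of all genes at an unadjusted p under 0.05 is not given here, so the unadjusted counts cannot be set against it.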

How the data were processed

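RNA was measured in 9 heart libraries, 3 per group. RNA came from an RNeasy Mini Kit and libraries from a SMARTER mRNA kit, per the labels' protocols. The authors deposited whole-number counts per gene, with other values such as gene length in bases. The aligner, counting program, strand handling and build: not given in the sources used here. All 10 gene identifiers, symbols and start positions matched the RefSeq annotation of Sscrofa11.1. Other list members were matched by symbol or RefSeq synonym.

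Counts were analysed in R 4.3.3 with edgeR 4.0.16 (filterByExpr with minimum count 10, TMM, 1 mean per group over all 9 libraries, quasi-likelihood F-test, Benjamini-Hochberg adjustment over 14846 genes, called at an adjusted p under 0.05). Each SE was taken as the size of the log2 fold change over the root of its F value. Levels are TMM-scaled CPM (counts scaled to 1000000). Alternatives used limma 3.58.1 and DESeq2 1.42.0. The fits were checked on simulated counts. All groups there had the same spread per gene and no library was made to stand apart, unlike these data. The genes and lists were chosen with earlier results of these data known. Besides the 10 genes, the text names the 6 genes per list with the smallest p for doxorubicin against vehicle and the 3 for doxorubicin plus formononetin against doxorubicin and, fixed by name, ACO1, FBXL5, HMOX1, GPX4 and SLC7A11. Another gene that the rule names is not reported here. Genes outside this rule are marked. Counts of the 10 genes ranged from 245 (counting error 6.39%) to 33251 per library. Within groups, libraries differed by more than counting noise. No sequence is shown, since no sequence table was used here.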

Additional observations from a re-analysis of the deposited data

How the results depend on the processing

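Across the 15 alternatives, the called values of FTL, ACSL4 and, for doxorubicin against vehicle, NCOA4 kept their direction and their call. Of 450 values for the 10 genes, 431 kept direction and side of the threshold, 14 newly passed and 5 no longer passed, and no called value changed sign. The number of these genes called ranged from 3 to 6 for doxorubicin against vehicle and from 3 to 5 for doxorubicin plus formononetin against doxorubicin. For doxorubicin plus formononetin against vehicle it was 0, but 1 with no filter on low counts, 2 by DESeq2 and 1 by limma voom, and 0 to 1 when single libraries were left out. Over all genes, that comparison had 262 calls, against 488 with no filter, 748 by DESeq2, 1378 by limma voom, 118 with only the 2 groups in the fit and 64 to 465 with single libraries left out. The causes were not tested. Counts for the other 2 comparisons stayed within 1.5 times.

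Groups share replicate numbers, but same-numbered libraries were not more alike than others. Their deviations from group means correlated between -0.204 and 0.0271, with 0 of 9 pairs over 0.1. Differently numbered libraries correlated between -0.114 and 0.139, with 3 of 18 pairs over 0.1. Deviations within a group sum to 0, so these values are tied to each other, and pairing under other numbers was not tested. With the replicate number as a block, doxorubicin against vehicle had 4327 genes called (4 of the 10). The block gave 3486 (4 of the 10) when doxorubicin plus formononetin was set against doxorubicin, and 124 (0 of the 10) when it was set against vehicle. Depth limits ABCB8 and SLC11A2 most, with 245 to 402 counts per library.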
